A study of Allium sativum with 18 samples.

Results

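Basal clove was compared with storage clove in enlarging garlic bulbs, across all gene IDs of the expression table. The comparison used 6 of the 18 libraries of the series, 3 of basal and 3 of storage clove, chosen by the tissue and stage in their labels, and tested the 30530 of 57561 gene IDs that reached 1 FPKM in at least 3 libraries of the series. Plants were garlic (*Allium sativum*) labelled Chalingzipisuan. Enlarging bulbs were collected a week after the flower stems sprouted, and basal and storage clove were parted by hand and kept frozen until RNA was extracted. The other groups were basal and storage clove of dormant bulbs and of germinating bulbs with short shoots, 3 biological replicates each. The labels name no treatment. The labels state neither how many bulbs went into a replicate nor how old the plants were.

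A garlic clove is a lateral bud in which a swollen storage leaf surrounds a shoot bud, and the cloves sit on a basal plate, a compressed stem from which roots emerge. While a bulb enlarges, the storage leaves act as a sink that fills with fructans and with the sulfur compounds from which garlic flavour is made, and the stem and bud tissue at the base holds meristems and the vascular connection to the plant. The labels do not say which of these parts the basal clove samples held. The table pairs no gene ID with a name, so no pathway, marker or cell type could be named, and the labelled tissues could not be checked against marker genes. Genes are given by ID, with at most 2 in each direction for a comparison.

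Expression was given by the authors as FPKM, fragments per kilobase of gene model, scaled by the fragments of the library. Reads assigned to genes, recovered from the steps of these values, came to 17933342 to 19335572 per library in basal clove and 11600094 to 12747904 in storage clove. For a coding length of 1 kb, 3 reads were worth 0.155 to 0.167 FPKM in the basal libraries and 0.235 to 0.259 FPKM in the storage libraries. These floors cover counting error only. Replicates correlated at Spearman coefficients of 0.981 to 0.987 in basal clove and 0.970 to 0.981 in storage clove, and libraries of different tissue at 0.852 to 0.900. Storage replicate 2 stood nearer to basal clove than the other storage libraries. Among the 4324 genes higher by 1 or more on the log2 scale in basal clove when that library was left out, its median position was 15.5% of the way from its replicates to basal clove. Among the 2200 genes lower by as much it was 12.04% of the way. For the other 5 libraries, placed in the same manner, the medians lay between -4.62% and 4.72%. The labels name no batch.

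Enlarging basal and storage clove differed in about every other gene tested, and most of these differences were small. With limma on log2(FPKM + 1), 15724 of the 30530 genes tested had an adjusted p below 0.05 (51.5%), with a higher level in basal clove for 8757 (28.7%) and a lower level for 6967 (22.8%). Among all calls, 9601, or 61.1%, differed by less than 1 on the log2 scale, and the median size of a called difference was 0.82 against a median standard error of 0.19 over all genes tested. Larger differences were more often higher than lower levels in basal clove. By 2 or more, 1320 genes were higher (4.32%) and 494 lower (1.62%), and by 3 or more, 393 were higher (1.29%) and 131 lower (0.429%). These counts were larger with voom and with a smaller pseudocount, while the other settings moved them less and some gave fewer. With voom on the recovered reads they were 2898 and 1077 by 2 or more and 1519 and 487 by 3 or more, and with a pseudocount of 0.1 they were 2898 and 1044, and 1393 and 391. The excess of higher genes over all calls depended on the scaling. Higher genes made up 55.7% of the calls with the deposited values and 46.3% once the libraries were quantile normalized. The median over all genes tested was a difference of 0.06 with the deposited values and -0.05 with the normalized ones. By 2 or more the excess kept its direction, with 1069 genes higher and 590 lower after quantile normalization. The comparison is between bulk tissues, in which fewer cells of a type and less RNA per cell cannot be told apart.

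The values of single libraries separated by tissue for more genes than were called. In 10442 genes (34.2%) each of the 3 basal values lay above each of the 3 storage values, and in 8364 genes (27.4%) each lay below. Of these, 8554 and 6717 were among the calls. Another 453 called genes had at least 1 basal and 1 storage library that overlapped. Without any tissue difference, 3 against 3 libraries would separate fully in either direction with a probability of 0.1. Separation alone is therefore weaker than a call. At the other end, 6069 genes (19.9%) had a 95% interval of the difference, from limma, that lay within 0.5 of 0 on the log2 scale in both directions. Among the 2412 genes with a tissue mean of 100 FPKM or more, 912 were of this kind. Adding 1 to each value compresses the differences of low genes, so the plot of difference against level narrows to the left.

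**Figure D1:**
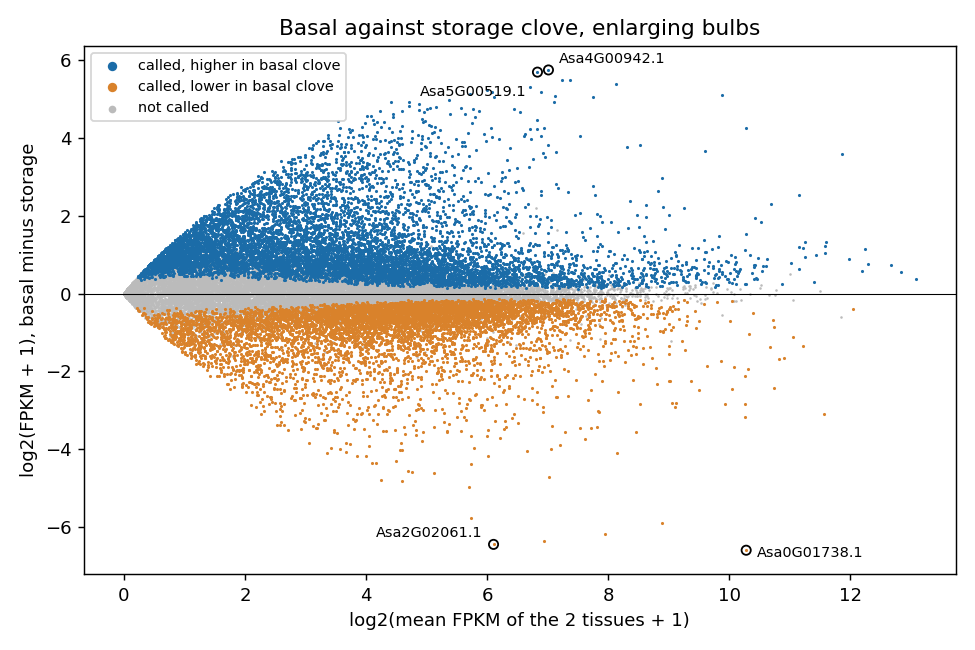
Each point is a gene, with log2 of the mean FPKM of both tissues plus 1 on the x axis and the difference in log2(FPKM + 1), basal minus storage clove, on the y axis (n = 3 libraries each). Blue genes were called higher and orange genes lower in basal clove by limma at an adjusted p below 0.05, grey genes were not called, and the 4 circled genes lie at 5.75, 5.69, -6.60 and -6.45.

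The named genes with the largest differences in log2(FPKM + 1) had mean FPKM values 62.2 and 57.3 times as high in basal clove, or 97.7 and 261.8 times lower. Asa4G00942.1, with a coding length of 795 bp, stood at 269.8, 267.6 and 220.01 FPKM in basal clove, against 3.95, 6.40 and 1.82 FPKM in storage clove. Asa5G00519.1, with a coding length of 537 bp, stood at 271.02, 205.2 and 190.1 FPKM in basal clove, against 3.36, 7.06 and 1.20 FPKM in storage clove. In both genes the basal libraries were far above the storage libraries, and storage replicate 2 was the highest of the storage libraries. On the log2 scale the gap was 5.75 (SE 0.27) for Asa4G00942.1 and 5.69 (SE 0.42) for Asa5G00519.1, with adjusted p-values of 4e-10 and 2.3e-08 from limma.

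In the other direction, Asa0G01738.1, with a short coding length of 309 bp, had 31.9, 26.9 and 16.7 FPKM in basal clove, against 2661, 2262 and 2457 FPKM in storage clove. Its difference was -6.60 (SE 0.25, limma adjusted p = 5.5e-11). Asa2G02061.1, with a coding length of 834 bp, had 0.267, 0.726 and 0.558 FPKM in basal clove, where 4, 11 and 9 reads were counted. It had 176.4, 140.1 and 89.6 FPKM in storage clove, a difference of -6.45 (SE 0.26, limma adjusted p = 8e-11). No basal library overlapped a storage library in these genes, which was a condition of their choice.

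At the later stages 3 of these genes were called again in the same direction, and the contrast of Asa0G01738.1 did not pass the test at germination. Asa4G00942.1 averaged 428.6 ± 44.8 FPKM in basal clove of dormant bulbs, against 7.78 ± 1.55 FPKM in their storage clove (SD, n = 3 libraries each), and 393.5 ± 81.1 against 7.80 ± 2.64 FPKM when germinating. Its tissue difference did not pass the test of a change between enlarging and dormant bulbs (0.13, SE 0.39, limma adjusted p = 0.85) or between enlarging and germinating bulbs (0.24, SE 0.39, limma adjusted p = 0.66). Asa5G00519.1 averaged 502.3 ± 84.3 FPKM in dormant basal clove, against 4.65 ± 2.71 FPKM in dormant storage clove, and 419.6 ± 145.3 against 2.88 ± 1.30 FPKM at germination. Asa0G01738.1 averaged 21.4 ± 6.81 FPKM in dormant basal clove, against 843.6 ± 186.2 FPKM in dormant storage clove, and 851.1 ± 42.1 against 1091 ± 316 FPKM at germination. The difference at germination was -0.32 (SE 0.25, limma adjusted p = 0.28), and the enlarging difference minus this one was -6.28 (SE 0.35, limma adjusted p = 5.4e-09). Asa2G02061.1 was lower in basal clove at each stage, at 1.17 ± 0.812 against 63.5 ± 13.3 FPKM in storage clove when dormant and at 19.5 ± 4.21 against 226.9 ± 18.3 FPKM when germinating.

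**Figure D2:**
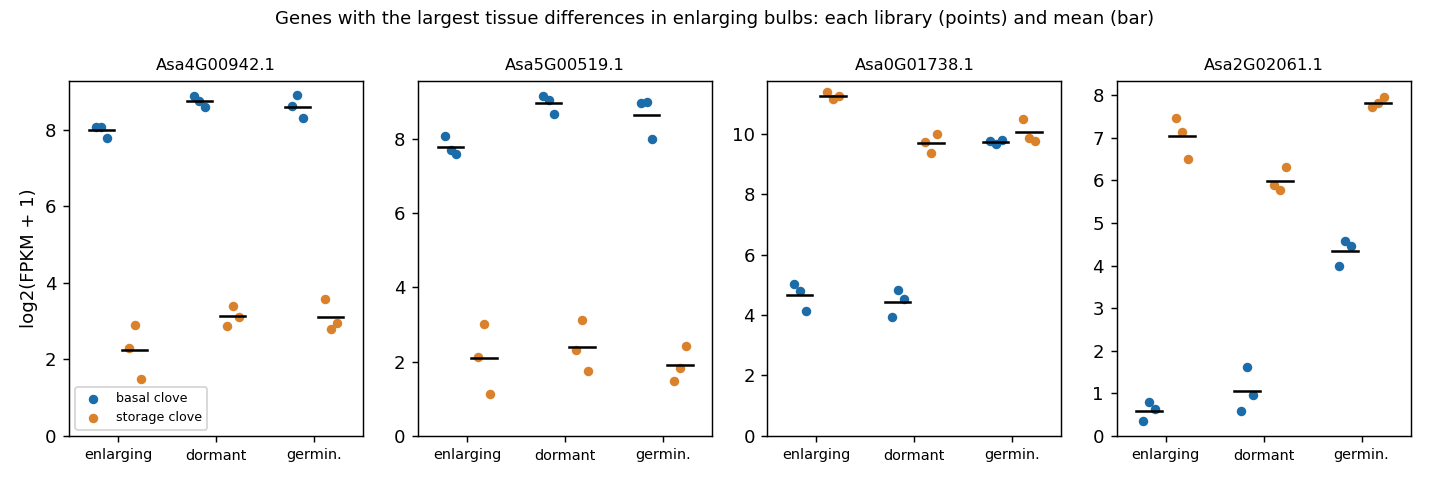
Values of 4 genes in log2(FPKM + 1) on the y axis, in basal clove (blue, left) and storage clove (orange, right) at each stage on the x axis. Points are libraries and bars are means (n = 3). Asa4G00942.1 and Asa5G00519.1 are high in basal clove at the 3 stages, while the basal values of Asa0G01738.1 reach the storage values at germination.

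Genes close to absent from 1 tissue were counted apart. With a mean of at least 10 FPKM in basal clove and less than 1 FPKM in each storage library there were 78 genes, and with the tissues exchanged there were 30. Without storage replicate 2 there were 183 genes, against 36 in the other direction. The first count can only stay or rise when a storage library is left out. The other libraries were not left out in turn for these counts. The 78 genes had a median of 14.1 FPKM in basal clove and at most 45.3 FPKM. In dormant bulbs 78 of them were called higher in basal clove, and in germinating bulbs 75, against 34.6% and 25% of all genes tested. Their median in storage clove was 0.266 FPKM when dormant and 0.453 FPKM when germinating. The 30 genes of storage clove had a median of 15.3 FPKM there while bulbs enlarged. In dormant bulbs their median was 0.402 FPKM for basal clove, against 5.21 FPKM for storage clove, and 26 of them had a basal mean under 1 FPKM. At that stage 23 were called lower in basal clove and 0 higher, where 23.1% of all genes tested were called lower. In germinating bulbs their median was 5.69 FPKM for basal clove, against 18.2 FPKM for storage clove, and 9 had a basal mean of 10 FPKM or more. There 23 were called lower in basal clove and 2 higher, against 35.4% and 25% of all genes tested. The lists of 78 and 30 genes were not tested against each other. Of the genes at 10 FPKM or more in basal clove, 1 had no read in the 3 storage libraries, against 0 genes with the tissues exchanged. Without storage replicate 2 these counts were 8 and 1, where again the first could only stay or rise.

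The 2 most abundant transcripts were the same in both tissues, and both were higher in basal clove. Asa6G06669.1, with a coding length of 507 bp, was the most abundant transcript per length in both, at 9649, 9492 and 10337 FPKM in basal clove, against 7784, 7784 and 7033 FPKM in storage clove. Asa8G02711.1, with a coding length of 447 bp, came next, at 8587, 8604 and 8879 FPKM in basal clove, against 5978, 6602 and 5365 FPKM in storage clove. The basal values lay above the storage values in both genes. The log2 differences were 0.38 (SE 0.08) and 0.54 (SE 0.09), with adjusted p-values of 0.0011 and 0.00013 from limma, and neither was called after quantile normalization, which gives the top transcript of each library the same value. Of the 100 transcripts highest in each tissue by mean FPKM, 66 were the same. Among the 134 in either list, 79 were called with a higher and 34 with a lower level in basal clove, against 28.7% and 22.8% of all genes tested. By 1 or more the counts were 24 and 25, against 13.4% and 6.65% of all genes tested. The lists were ranked on the same values, and a transcript in only 1 list entered through the tissue where it ranked high. These counts are therefore no test of abundant transcripts against all genes.

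The 100 transcripts with the most reads in a library took 17.5%, 17.2% and 17.6% of its reads in basal clove, against 13.3%, 13.2% and 13.1% in storage clove. The means were 17.5 ± 0.203% and 13.2 ± 0.113% (SD, n = 3 each), a difference of 4.23 percentage points. The 10 leading transcripts took 6.22 ± 0.0602% in basal and 3.52 ± 0.124% in storage clove. Per length, as a share of the summed FPKM, the leading 100 took 19.6 ± 0.205% and 16.6 ± 0.202%. Each of these 3 shares was higher in every basal library than in every storage library, with a two-sided exact permutation p of 0.1, the smallest that 3 against 3 libraries can give. Basal libraries also listed more genes. At 1 FPKM or more there were 26755 ± 65.5 genes in basal and 25274 ± 223 in storage clove, and at 10 FPKM or more 14637 ± 54.5 and 13794 ± 121, each with an exact permutation p of 0.1.

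How often a gene was called depended on its level. Among genes whose higher tissue mean was 1 to 10 FPKM, basal clove was called higher in 29.8% and lower in 14.2%. From 10 to 100 FPKM the shares were 30.0% and 31.5%, and from 100 to 1000 FPKM they were 33.9% and 38.9%. Among the 129 genes above 1000 FPKM the order turned, with 64.3% higher and 20.2% lower in basal clove and a median difference of 0.49. The class was set by the higher tissue mean, so a gene entered through the tissue where it was high. Basal libraries held 107.3 genes at 1000 FPKM or more on average, against 78 in storage libraries. The shares of this class are therefore no test of abundant genes against the other classes. They rest on the deposited values and were not computed after quantile normalization. Genes at higher levels also had more reads behind each value. By 1 or more, the highest class held 18.6% higher and 15.5% lower genes.

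Differences also went with the length of the coding sequence. Of the 3212 genes with a coding length up to 300 bp, basal clove was called higher in 28.0% and lower in 10.9%. Of the 752 genes above 3000 bp, 18.5% were higher and 55.3% lower. The median difference of all genes went down class by class, from 0.23 in the shortest to -0.32 in the longest. In differences of 1 or more the lower share was 5.26% in the shortest and 7.45% in the longest class, while the higher share was 14.4% and 8.24%. At equal FPKM a longer gene has more reads behind each value, and the part of this in the called shares was not tested. Among the genes at 10 to 100 FPKM, a narrower range of levels, the medians of the shortest and longest class were 0.25 and -0.40. The mean coding length weighted by FPKM was 881.5, 895.4 and 891.0 bp in the basal libraries, against 935.0, 938.2 and 929.0 bp in the storage libraries. The tissues did not overlap in this value (exact permutation p = 0.1). The same measure was 910.9 ± 8.57 bp in basal and 947.7 ± 4.94 bp in storage clove of dormant bulbs, and 851.1 ± 6.25 and 905.3 ± 8.76 bp at germination. The median differences of the length classes did not go down class by class at the later stages. At dormancy they were 0.15 in the shortest class, 0.17 in the next and -0.17 in the longest. At germination they were -0.28 in the shortest class, rose to -0.11 in the middle of the range and reached -0.45 in the longest. RNA integrity and the fragment length of each library are not stated, and their part in the trend was not tested.

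**Figure D3:**
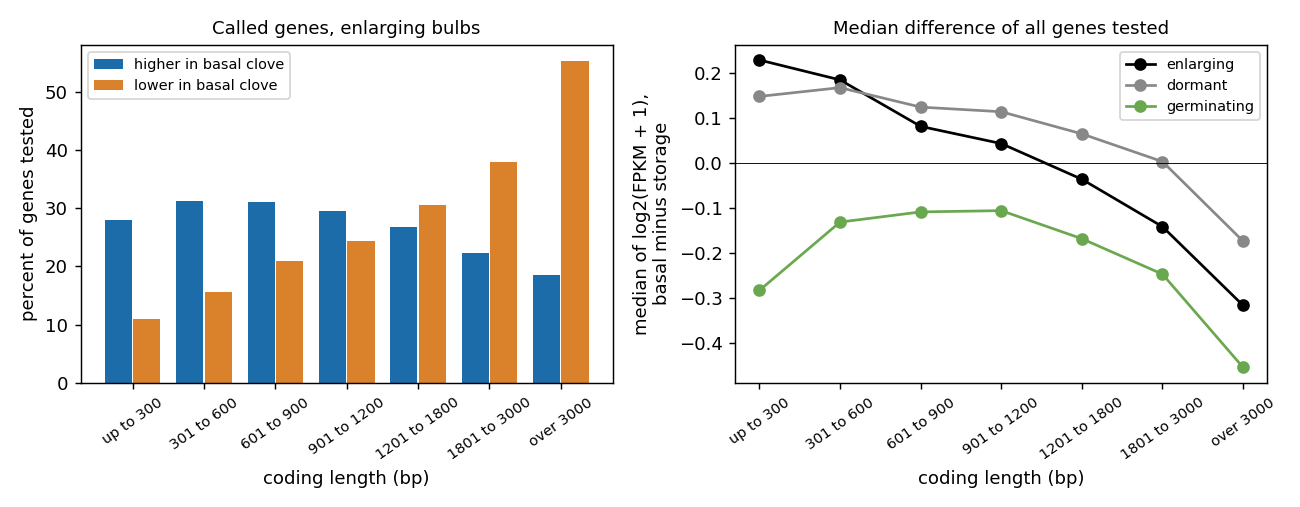
Coding length classes in bp on both x axes. On the left, the percent of genes called higher (blue) or lower (orange) in enlarging basal clove; on the right, the median difference in log2(FPKM + 1), basal minus storage clove, of all genes tested at each stage. The lower share reaches 55.3% above 3000 bp, and the enlarging median passes from 0.23 to -0.32.

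Genes with consecutive ID numbers tended to differ in the same direction. Of 2516 genes higher by 1 or more whose next ID was also tested, 24.7% had a next gene higher by as much, against 13.4% of the 18590 next genes of all genes tested. Of 1258 genes lower by 1 or more, 21.5% had a next gene lower by as much, against 6.86%. Next genes of the opposite direction made up 4.89% and 7.63%, against 6.86% and 13.4%. Runs of 3 or more consecutive IDs numbered 87 for higher and 30 for lower genes. The longest held 6 IDs, whose means were 3.84 to 90.7 FPKM in basal clove and 0.322 to 17.2 FPKM in storage clove, with differences of 1.89 to 3.89 on the log2 scale. Whether reads were shared between similar neighbouring genes was not tested. The labels do not say whether ID numbers follow the order on a chromosome.

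Large tissue differences of enlarging bulbs were mostly found again in the libraries of the later stages, which are other samples. Of the 393 genes higher by 3 or more in enlarging basal clove, 390 (99.2%) were called higher at dormancy and 377 (95.9%) at germination, against 34.6% and 25% of all genes tested. Of the 131 lower by 3 or more, 112 (85.5%) were called lower at dormancy and 105 (80.2%) at germination, against 23.1% and 35.4%. The genes higher in basal clove had a median difference of 4.38 at dormancy and 3.52 at germination, and those lower had -2.59 and -1.85. Among the smaller differences, below 1, 61.4% of higher genes were called in the same direction at dormancy and 39.0% at germination, where 21.1% were called in the opposite one. Of the lower genes below 1, 56.0% were called in the same direction at dormancy and 72.0% at germination, where 6.30% were called in the opposite one. The 3 comparisons share an estimate of the spread of each gene. With separate models for each stage, the genes at 3 or more that were called again were 391 and 373 of 393 higher and 111 and 99 of 131 lower.

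**Figure D4:**
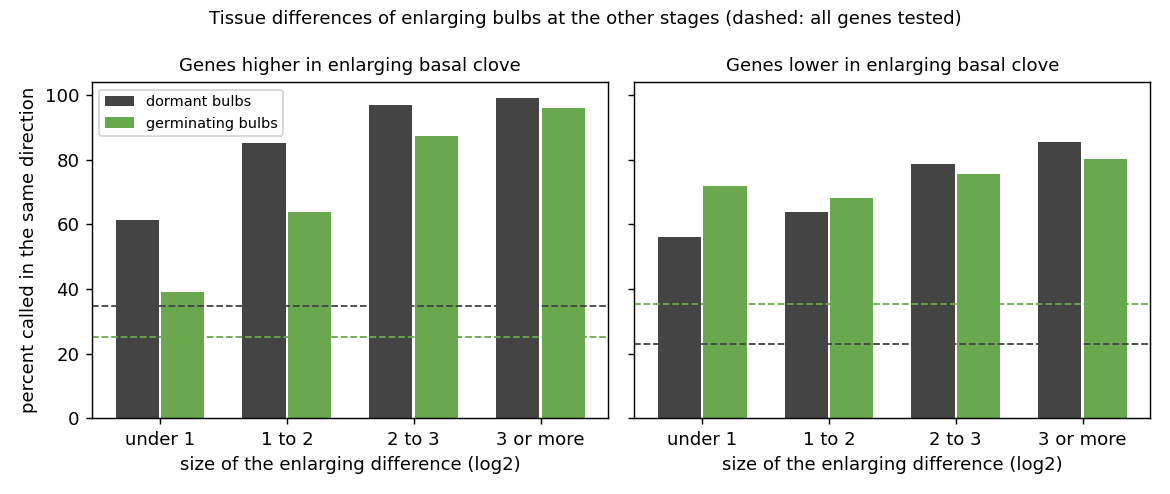
Percent of genes called in enlarging bulbs that were called in the same direction at dormancy (dark) or germination (green), on the y axis, by the size of the enlarging difference on the x axis. Dashed lines give the percent of all genes tested called in that direction. The bars reach 99.2% and 95.9% for higher and 85.5% and 80.2% for lower genes at 3 or more.

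A test of the difference between stages was used to find genes whose tissue contrast lay further in its enlarging direction than at both later stages. The tissue difference changed between enlarging and dormant bulbs in 8720 genes (28.6%) and between enlarging and germinating bulbs in 11325 genes (37.1%). A gene counted where all 3 tests were passed and both changes had the sign of the enlarging difference. This includes genes whose tissues changed order, even with a larger difference later. There were 994 genes higher (3.26%) and 648 genes lower (2.12%) in basal clove. Of these, 266 and 271 differed by 1 or more. The first count was 653 when all libraries were thinned to the same depth. Of the 994 genes, 946 had a higher mean in enlarging basal clove than in basal clove of either later stage, and 202 had their lowest storage mean when enlarging. At both later stages 221 were called lower in basal clove, and 231 were not called at either. Of all genes tested, 23.1% were called lower at dormancy and 35.4% at germination, each stage taken alone. Of the 648 genes, 471 had their lowest basal mean and 259 their highest storage mean when enlarging. At both later stages 53 were called higher in basal clove, and 167 were not called at either. Of all genes tested, 34.6% were called higher at dormancy and 25% at germination, each stage taken alone. The medians of both sets in enlarging bulbs were 0.70 for the higher and -0.82 for the lower genes. Both sets were chosen by these same values, so the counts of highest and lowest means, and of calls at the later stages, follow in part from the choice. The shares of all genes called at both later stages, or at neither, were not computed. These counts were therefore not set against matching shares of all genes tested.

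Asa7G05313.1, with a coding length of 594 bp, had 59.0, 70.6 and 62.9 FPKM in enlarging basal clove, against 7.66, 7.26 and 7.05 FPKM in storage clove. At dormancy it averaged 34.9 ± 6.19 FPKM in basal clove, against 36.9 ± 4.23 FPKM in storage clove, a difference of -0.09 (SE 0.16, limma adjusted p = 0.68). At germination it averaged 0.967 ± 0.0923 against 0.653 ± 0.418 FPKM. Its enlarging difference of 2.97 exceeded that at dormancy by 3.05 (SE 0.23, limma adjusted p = 4.3e-07) and that at germination by 2.69 (SE 0.23, limma adjusted p = 2.9e-07). Asa3G03772.1, with a coding length of 747 bp, turned its direction. It had 168.7, 173.9 and 163.4 FPKM in enlarging basal clove, against 98.9, 111.2 and 87.8 FPKM in storage clove, a difference of 0.76 (SE 0.13, limma adjusted p = 0.00012). In dormant bulbs it averaged 35.4 ± 3.60 FPKM in basal clove, against 114.4 ± 9.94 FPKM in storage clove, and in germinating bulbs 8.75 ± 1.91 against 39.5 ± 3.21 FPKM. The basal libraries were the higher ones in enlarging bulbs and the lower ones at both later stages.

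Among genes lower in enlarging basal clove, Asa7G02849.1, with a coding length of 585 bp, had 0, 0.658 and 0.707 FPKM in basal clove (0, 7 and 8 reads), against 28.8, 21.5 and 19.0 FPKM in storage clove. At dormancy it was below 2 FPKM in each library, with means of 0.138 ± 0.169 FPKM for basal and 0.842 ± 0.672 FPKM for storage clove. At germination the means were 17.6 ± 4.55 and 20.2 ± 3.23 FPKM in the same order. Its enlarging difference of -4.07 went beyond that at dormancy by -3.43 (SE 0.39, limma adjusted p = 1.4e-05), a change that was not called with voom on the recovered reads (adjusted p = 0.11). Asa6G06761.1, with a coding length of 831 bp, had 26.8, 27.7 and 21.2 FPKM in enlarging basal clove, against 83.3, 62.9 and 107.9 FPKM in storage clove. The order was turned later, with means of 24.9 ± 2.95 FPKM for basal and 7.53 ± 0.803 FPKM for storage clove when dormant, and 80.7 ± 23.1 against 25.5 ± 9.98 FPKM when germinating. The differences were -1.68 in enlarging, 1.60 in dormant and 1.66 in germinating bulbs (SE 0.25 each), with limma adjusted p-values of 3.4e-05, 3.8e-05 and 2.6e-05.

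**Figure D5:**
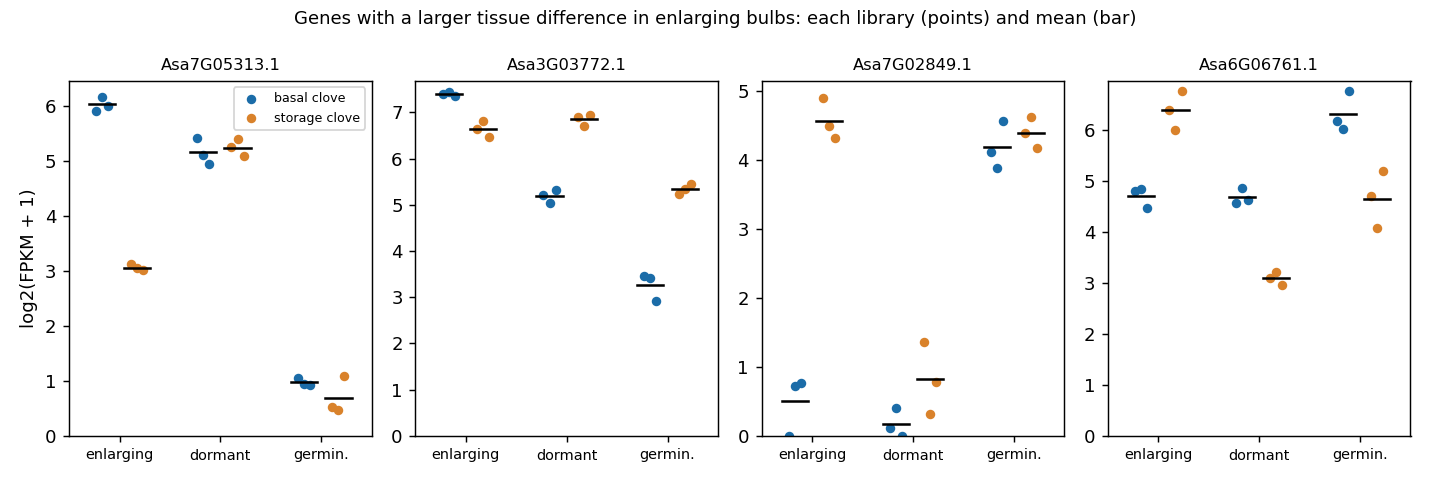
Values of 4 genes in log2(FPKM + 1) on the y axis, in basal clove (blue, left) and storage clove (orange, right) at each stage on the x axis. Points are libraries and bars are means (n = 3). Asa7G05313.1 and Asa7G02849.1 are separated by tissue in enlarging bulbs, and the order of the tissues in Asa3G03772.1 and Asa6G06761.1 is turned in dormant and germinating bulbs.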

How the data were processed

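RNA sequencing of basal and storage clove at 3 stages gave 18 libraries, grouped by the tissue and stage in the labels. The authors deposited 1 table of FPKM values with 1 column per library, per the file headers. HISAT2 is named, without a version, by the submitters' processing notes. The counter, build, annotation and use of strand: not given in the sources used here. Values of a gene rise in steps of 1 read, so library totals and lengths were searched for at which values were whole. All 595800 values above 0 came out whole within 0.01 reads, which was the rule for choosing a length. Over 400 genes, lengths lay 3.13e-06 bp from whole numbers on average at the library total found, against 0.255 bp at other totals. Among genes with over 100 reads in a library, 95.2% of the lengths were multiples of 3, hence coding length. Lengths of genes with fewer reads were not checked in this way.

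Genes reaching 1 FPKM in 3 or more libraries were tested with limma 3.58.1 (R 4.3.3) on values of log2(FPKM + 1), two-sided. One model held the 6 group means of all 18 libraries (12 residual degrees of freedom, 3.8 prior, variance trend), with Benjamini-Hochberg adjustment within a comparison and a threshold of 0.05. A difference on this scale understates the change of low genes. Tissue differences at the 3 stages and their differences between stages were tested. Single values per library were compared by exact permutation tests in SciPy 1.17.1. In simulated data for the enlarging comparison (29481 genes, 200 of them changed), the model recovered 63% of 2-fold and 98% of 4-fold changes, and 3% of its calls were unchanged genes. Far more genes were called in the real comparison, so these shares do not carry over. Replicates differed by more than sampling noise, with a chi-square per gene of 4.21 to 9.98 over genes with 20 reads or more in a pair.

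Named genes were the 2 in each direction with the largest differences among called genes without overlap and with a higher mean of at least 10 FPKM. For the test between stages they were the 2 in each direction with the largest value of the smaller of both changes, under the same conditions. The 2 most abundant transcripts of each tissue were also named. Members and rules were chosen with earlier results of these data known. The alternatives covered pseudocounts, filters, scaling, weights, thinning, a replicate block, voom, fewer libraries and leaving out each library.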

Additional observations from a re-analysis of the deposited data

Results flagged for a closer look

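The tissue difference of 8 named genes differed between enlarging bulbs and a later stage by the test of that difference in limma, in log2(FPKM + 1), basal minus storage clove, with adjusted p-values between 5.4e-09 and 0.0096. Asa7G05313.1, Asa3G03772.1, Asa7G02849.1 and Asa6G06761.1 had been named by this same test. Of all genes tested, 28.6% were called in it against dormant and 37.1% against germinating bulbs. Against dormant bulbs the tissue difference was more positive by 3.05 for Asa7G05313.1, by 2.43 for Asa3G03772.1, by 0.98 for Asa8G02711.1 and by 0.55 for Asa6G06669.1. It was more negative for the others, at -3.43 for Asa7G02849.1, -3.28 for Asa6G06761.1, -1.51 for Asa2G02061.1 and -1.34 for Asa0G01738.1. Against germinating bulbs the values were 2.83 for Asa3G03772.1, 2.69 for Asa7G05313.1, 1.63 for Asa8G02711.1 and 0.92 for Asa6G06669.1, and -6.28 for Asa0G01738.1, -3.86 for Asa7G02849.1, -3.34 for Asa6G06761.1 and -2.95 for Asa2G02061.1. Over all genes tested, 994 higher in enlarging basal clove had a more positive tissue difference than at both later stages. A more negative one was found for 648 lower in enlarging basal clove.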

How the results depend on the processing

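The counts of genes called (15724), called higher and called lower in basal clove stayed within 1.5 times under each of 18 alternatives, from 13660 to 17549 calls. Leaving out each enlarging library in turn gave 13897 to 14833 calls, 7754 to 8317 higher and 6143 to 6516 lower. Counts of large differences depended on how low values are treated. By 2 or more, 2898 genes were higher and 1044 lower with a pseudocount of 0.1, and 2898 and 1077 with voom on recovered reads. By 3 or more they were 1393 and 391 with a pseudocount of 0.1 and 1519 and 487 with voom, and 650 were higher with a pseudocount of 0.5. Genes higher in enlarging basal clove with a more positive difference than at both later stages numbered 653 after thinning to 6540146 reads and 718 to 1005 without 1 library. The difference in the reads share of the 100 leading transcripts lay between 4.16 and 4.35 percentage points when each enlarging library was left out in turn. The 9 alternatives also included other measures, namely the 10 or 1000 leading transcripts and shares of summed FPKM. The lowest value among all 9 was 2.13, for the reads share of the 1000 leading transcripts. The median difference of the longest minus the shortest coding length class, -0.54, lay between -0.63 and -0.36 over 18 alternatives. The tissue differences of the named genes were called under each alternative, except those of Asa6G06669.1 and Asa8G02711.1 after quantile normalization (adjusted p = 1 and 0.53), when their changes from enlarging to dormant bulbs were not called either (1 and 0.096). With voom that change was not called for Asa2G02061.1 (adjusted p = 0.23) and Asa7G02849.1 (0.11). The estimate of the array weights stopped before it converged. Libraries of the same replicate number did not deviate together (correlations of -0.07, -0.01 and -0.20), no sample correlated best with its own number, and the replicate block gave 14684 calls, with 795 and 485 genes in the test between stages.
Fewer reads were assigned in storage than in basal clove, so its low values carry more counting error. The cause of these shifts was not tested, apart from the compression of low values by the pseudocount.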

Other observations

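The share of a library taken by its leading transcripts was also computed at the later stages. The 100 transcripts with the most reads took 15.5 ± 0.346% of reads in basal and 14.7 ± 0.0827% in storage clove of dormant bulbs (SD, n = 3 each), and 15.7 ± 0.179% and 14.4 ± 0.765% at germination. Per length, as a share of summed FPKM, the dormant values were 16.8 ± 0.334% in basal and 18.3 ± 0.242% in storage clove, the reverse of enlarging bulbs, and the germinating values were 17.3 ± 0.253% and 17.3 ± 1.08%. For the leading 1000 per length, basal minus storage clove was 2.32 percentage points in enlarging, -1.62 in dormant and 2.36 in germinating bulbs. Whether these gaps differ between stages was not tested.

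The digit before the G of an ID, from 0 to 8, made little difference to the share of genes higher by 1 or more in enlarging basal clove, which lay between 12.9% and 13.8%. The share lower by 1 or more lay between 5.64% for the digit 0 and 7.81% for the digit 2.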
